A study of Arabidopsis thaliana with 4 samples.

Results

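EMB genes are Arabidopsis thaliana genes named for mutants in which embryo development is defective. They were examined here for binding of SMXL6, a repressor of strigolactone signalling. The members were the nuclear protein-coding genes whose main symbol in a RefSeq table of the assembly TAIR10.1 is EMB followed by digits, with capital and lower-case spellings treated alike. There were 160 of them among 27444 nuclear protein-coding genes, 112 spelled in capitals and 48 in lower case. The symbol rule uses no measured value, but the group as a whole was selected on its counts of peaks in the lists described here, so these counts are a description and carry no test.

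The assay was ChIP-seq (chromatin immunoprecipitation followed by sequencing), which recovers the DNA fixed to a tagged protein and reports enriched stretches as peaks. The 4 libraries came from whole seedlings aged 2 weeks, immunoprecipitated with a polyclonal antibody against the HA tag. In 2 of them the plants were smxl6/7/8 triple mutants with the pSMXL6:SMXL6-HA transgene, which expresses HA-tagged SMXL6 from the SMXL6 promoter. The other 2 were from the smxl6/7/8 mutant without it, so all plants lacked the endogenous SMXL6, SMXL7 and SMXL8 functions, and signal in the control libraries is background of the antibody. List 1 holds the 1789 peaks called by the authors in replicate 1 against its control, and list 2 the 1442 peaks of replicate 2. Nothing in the labels ties the replicates to separate cultures, so differences between the lists may be only technical. Seedlings contain no embryos, and SMXL6 was present only where its own promoter is active.

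EMB genes were found in screens for seeds that abort or hold arrested embryos. Most encode proteins that every growing cell needs rather than regulators of pattern. Among them are ribosomal proteins, tRNA synthetases, splicing and replication factors, and pentatricopeptide repeat proteins, which bind and process RNA in chloroplasts and mitochondria. SMXL6 and its relatives are degraded when strigolactone is perceived and otherwise hold back genes with TOPLESS corepressors.

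No EMB gene had a peak of both lists at its ends. A gene was counted when a peak overlapped the stretch from 1000 bp outside to 200 bp inside either gene end by at least 1 bp. In list 1, 7 of 160 EMB genes (4.38%) had such a peak, against 11.3% of all protein-coding genes. In list 2 it was 1 of 160 (0.625%), against 6.68%. For both lists together it was 0 of 160, against 5.04% of all genes. At those shares of all genes, 18.0, 10.7 and 8.07 EMB genes would have been counted. A peak of either list stood at 8 EMB genes (5.0%), against 12.9% of all genes, and 152 had none.

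EMB genes lie in shorter intergenic stretches than most genes. The summed distance to the neighbouring genes on both sides had a median of 985.5 bp (quartiles 300.75 and 1913.5 bp) for EMB genes and 1362 bp (507 and 2867 bp) for all genes. Other genes were therefore averaged over 20 bins of this length with the weights of the EMB genes. That lowered the share of other genes only slightly, to 10.4% in list 1, 6.06% in list 2 and 4.5% in both. The corresponding numbers for 160 genes are 16.7, 9.7 and 7.2, against the 7, 1 and 0 counted. Genes that carry a symbol, as EMB genes do, had more peaks than the rest, with 13.6% in list 1, 8.63% in list 2 and 6.39% in both.

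**Figure D1:**
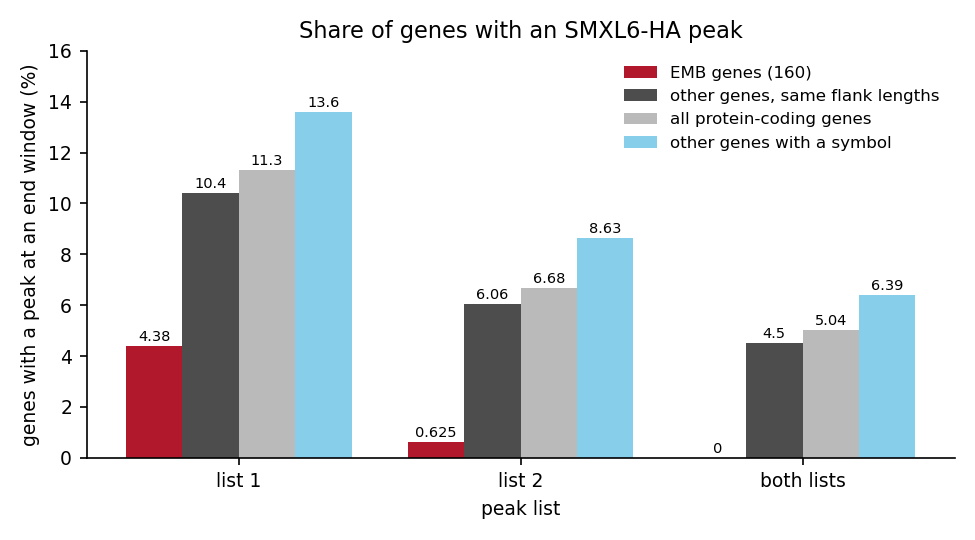
Percent of genes with a peak at an end window in list 1, list 2 or both, for the 160 EMB genes, other genes averaged over the same flank lengths, all protein-coding genes, and other genes with a symbol. The EMB bars (4.38%, 0.625% and 0) are the lowest of each set.

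The count was also set against flank length, with all genes put into 4 equal classes of summed flank. In the class with the shortest flanks, up to 507 bp, 1 of 63 EMB genes had a list 1 peak, against 8.0% of all genes there. In the next class it was 2 of 34 (all genes 10.5%) and in the third 3 of 40 (11.4%). Among the 23 EMB genes with flanks of at least 2867 bp, 1 had a list 1 peak and another had a list 2 peak, against 15.0% and 9.27% of all genes. The EMB share lay below that of all genes in each of these 4 broad classes in both lists. The 20 finer bins hold 2 to 18 EMB genes each, and in some of them 1 or 2 peaks put the EMB share above that of other genes. At the ends of the range, EMB976, with the longest summed flank (8188 bp), had its nearest peaks 89064 bp away in list 1 and 89406 bp away in list 2. The helicase gene emb2411 had no intergenic sequence at either end, as was so for 6 EMB genes in all, and its nearest peaks were 6076 bp and 72013 bp away.

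**Figure D2:**
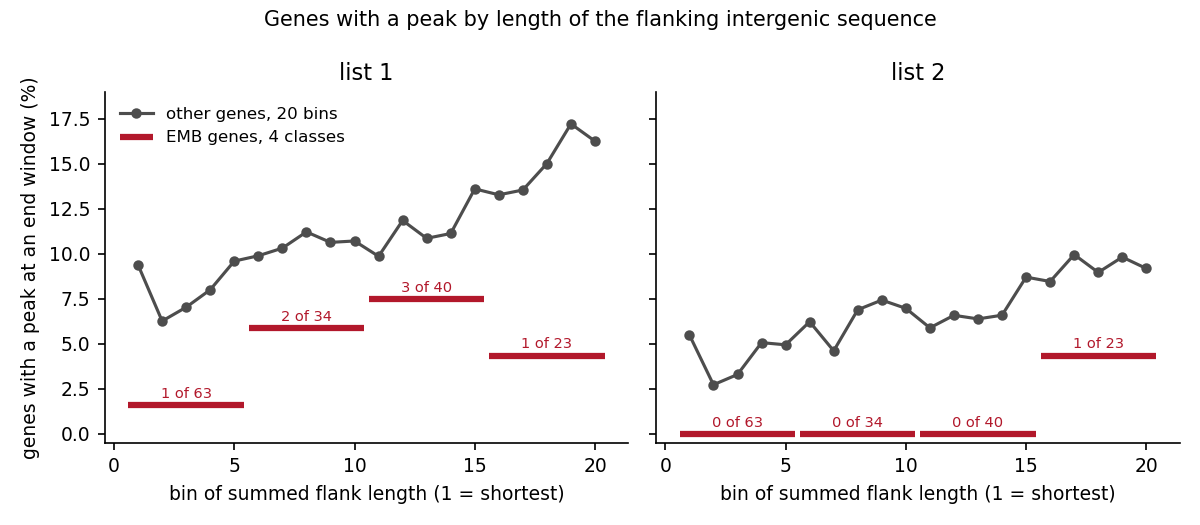
Percent of genes with a peak at an end window against summed flank length, for list 1 (left) and list 2 (right). Grey points are other genes in 20 bins of equal size from shortest to longest, and red lines are EMB genes in 4 classes, labelled with their counts. Each red line lies below all grey points of its class.

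The 8 EMB genes with a peak are described in turn, starting with those that encode RNA-processing proteins. Such proteins are also common among members without a peak, as the counts by role below show. EMB3011 (AT5G13010), a homolog of the yeast splicing helicase PRP16, spans chromosome 5, 4122400 to 4129005. Its list 1 peak, 4120815 to 4123098 with a score of 58.88 (rank 1509 of 1789), covered the lower gene end. Scores are the authors' own value per peak, ranked from the highest. The nearest list 2 peak lay 79689 bp from that peak. EMB1691 (AT4G09980, chromosome 4, 6247735 to 6252314) encodes a partner of the RNA adenosine methyltransferase of messenger RNA. Its list 1 peak, 6244827 to 6247373 with a score of 137.66 (rank 503), ended 362 bp below the gene. This was the only peak at an EMB gene that overlapped a peak of the other list. That list 2 peak (6245132 to 6246463, score 91.84) was narrower, ended 1272 bp below EMB1691, and so fell just outside the window. In list 1 the end nearest to the peak's midpoint belonged to AT4G09970, which was a target in both lists.

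EMB2820 (AT5G24670), or TAD3, encodes a tRNA adenosine deaminase. It lies on chromosome 5, 8447378 to 8451569, and its list 1 peak ran from 8444714 to 8449247 with a score of 56.11 (rank 1593). The peak covered 44.6% of the gene, and LSU2 also had an end window at it. TAD2 (emb2191), which encodes the other subunit of the same deaminase, lay 389716 bp from the nearest list 1 peak and 405138 bp from the nearest list 2 peak. For emb2746 (AT5G63420), an RNase J-type nuclease of the chloroplast, the list 1 peak at chromosome 5, 25398588 to 25400972, scored 102.9 (rank 767) and covered the lower end of a gene at 25400317 to 25406250. The nearest list 2 peak lay 22031 bp from it.

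The chloroplast ribosomal protein gene emb2184 (AT1G75350) was covered whole by a list 1 peak. The gene spans chromosome 1, 28272071 to 28273009, and the peak 28271467 to 28274562, with a score of 53.49 (rank 1675), among the lowest 6.43% of the list. EMB975 (AT2G01860), a pentatricopeptide repeat protein gene at chromosome 2, 388055 to 389918, had the highest score of the group. Its list 1 peak at 386095 to 388682 scored 144.82 (rank 474). The nearest end to the midpoint was that of EXGT-A3, which was a target in both lists, although its list 2 peak was another one, 1726 bp away from the list 1 peak. Whether the peak belongs to EMB975 or EXGT-A3 cannot be told from the lists.

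Gene emb2170 (AT1G21390, chromosome 1, 7489046 to 7490803) was also covered whole, by a list 1 peak at 7487029 to 7491985 with a score of 133.79 (rank 521). That peak was 4957 bp wide and touched the end windows of AT1G21380 and AT1G21395 as well. EMB269 (AT5G18570), which encodes an OBG-like GTPase of the chloroplast, was the single EMB gene with a list 2 peak. The gene lies on chromosome 5, 6171572 to 6174944, and the peak, 6169971 to 6170957, ended 615 bp below it with a score of 99.07 (rank 649 of 1442). The nearest list 1 peak lay 9394 bp from that peak and 5407 bp from the gene.

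The peaks at EMB genes scored below the upper quartile of their list, and most scored above its median. The 7 list 1 peaks had a median score of 102.9 (53.49 to 144.82), against a list median of 92.0 and an upper quartile of 149.57, which none of them reached. Of the 7, 3 scored below the list median. Only 1 of the 7 was overlapped by a list 2 peak, while 54.9% of all list 1 peaks were. The list 2 peak at EMB269 was not overlapped, while 74.7% of its list were. This low overlap largely restates that no EMB gene had peaks of both lists. The group was selected on its counts of peaks, so the overlap is not a separate result. In 5 of the 7 the EMB gene had the nearest end to the midpoint, as it did for EMB269. All 8 peaks overlapped the window at the lower coordinate, and 2 also the upper window. Which end is the promoter was not determined, since strand was not used here.

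**Figure D3:**
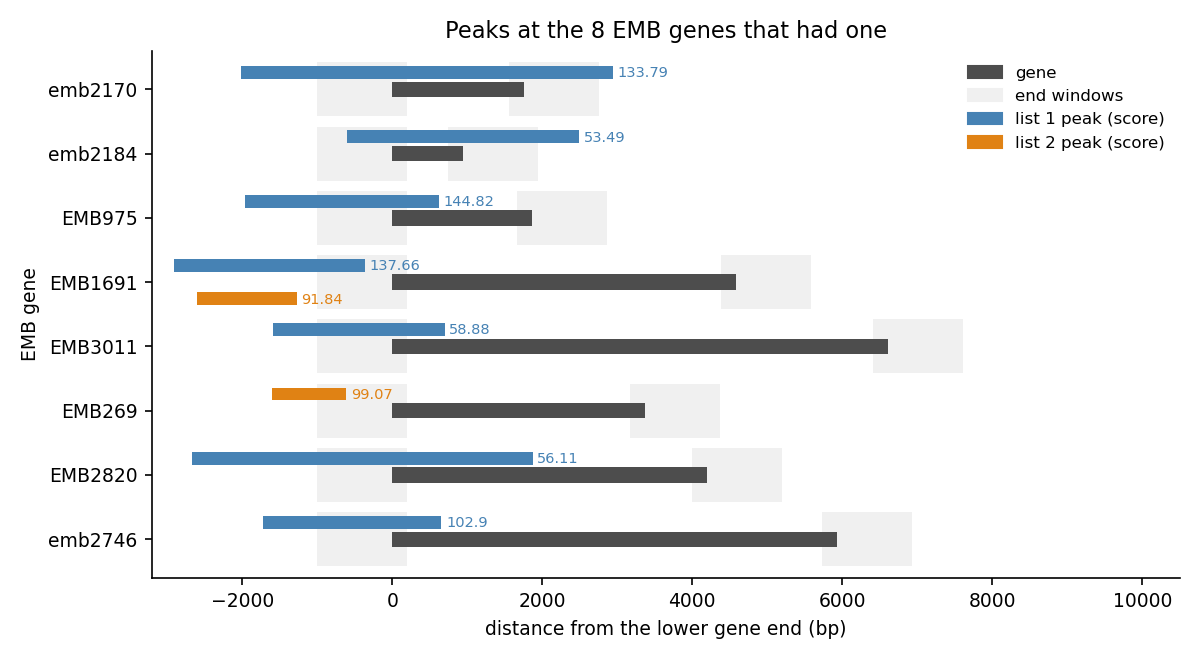
The 8 EMB genes with a peak (grey bars, drawn to scale from the lower gene end, in bp), their end windows (light boxes), and list 1 (blue) and list 2 (orange) peaks with their scores. EMB1691 is the single gene with peaks of both lists drawn, and its list 2 peak stops 1272 bp below the gene, outside the window.

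Around the window limit of 1000 bp the nearest values were as follows. Just inside were the list 1 peak at EMB1691, 362 bp away, and the list 2 peak at EMB269, 615 bp away. Just outside was the peak at EMB2813 (AT1G67320), which encodes a DNA primase subunit. It lay 1243 bp below the gene in list 1 (chromosome 1, 25202122 to 25204036, score 135.14) and 1409 bp below in list 2 (25202456 to 25203870, score 304.98). The nearest gene end to both was that of AT1G67310. Windows of 2000 bp counted EMB2813 and EMB1691 as targets in both lists.

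The other EMB genes nearest to a peak shared by both lists were farther off. For emb1473, a chloroplast ribosomal protein gene, the distances were 1723 bp and 2037 bp, with scores of 85.43 and 93.84. For EMB2753 they were 2078 bp and 3727 bp, with scores of 209.3 and 80.63, and ATXRCC1 had the nearest end in both lists. For emb1273 they were 2439 bp and 2807 bp, with scores of 123.94 for the list 1 peak and 58.82 for the nearer of the 2 list 2 peaks that overlapped it. For EMB2730, or RNR1, a ribonuclease gene, they were 2687 bp and 4377 bp, with scores of 120.97 and 59.44. In each of these cases another gene than the EMB gene had the end nearest to the midpoint.

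Peaks were less frequent within 1 kb of EMB genes than of other genes, while the median distances were close. The distance from the nearer gene end to a list 1 peak had a lower quartile of 10820.8 bp and a median of 20992.5 bp for EMB genes, against 6568 bp and 21199 bp for all genes. In list 2 the lower quartile was 14151.8 bp and the median 27989.5 bp, against 9992.25 bp and 28961.5 bp. Within 1 kb, 7 EMB genes had a list 1 peak where the flank-binned share gives 16.7. From 1 to 5 kb there were 14 against 16.3, from 5 to 20 kb 54 against 44.6, and from 20 to 50 kb 49 against 43.1. Summed up to 10 kb, 37 EMB genes had a list 1 peak against 50.4. In list 2 the counts came to 1 where 9.79 would match within 1 kb, 14 against 14.0 from 1 to 5 kb, 43 against 39.8 from 5 to 20 kb, and 45 against 43.2 from 20 to 50 kb. Up to 10 kb the list 2 sum was 32 against 39.4. Both sums up to 10 kb include the genes within 1 kb. Most of the shortfall in list 1, and all of it in list 2, lay within that 1 kb. Beyond 50 kb list 1 had 36 against 39.2 and list 2 had 57 against 53.1. The farthest was EMB1075, a serine decarboxylase gene, 1693594 bp from a list 1 peak and 799382 bp from a list 2 peak. These numbers are a description of positions, and neighbouring genes are not independent.

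**Figure D4:**
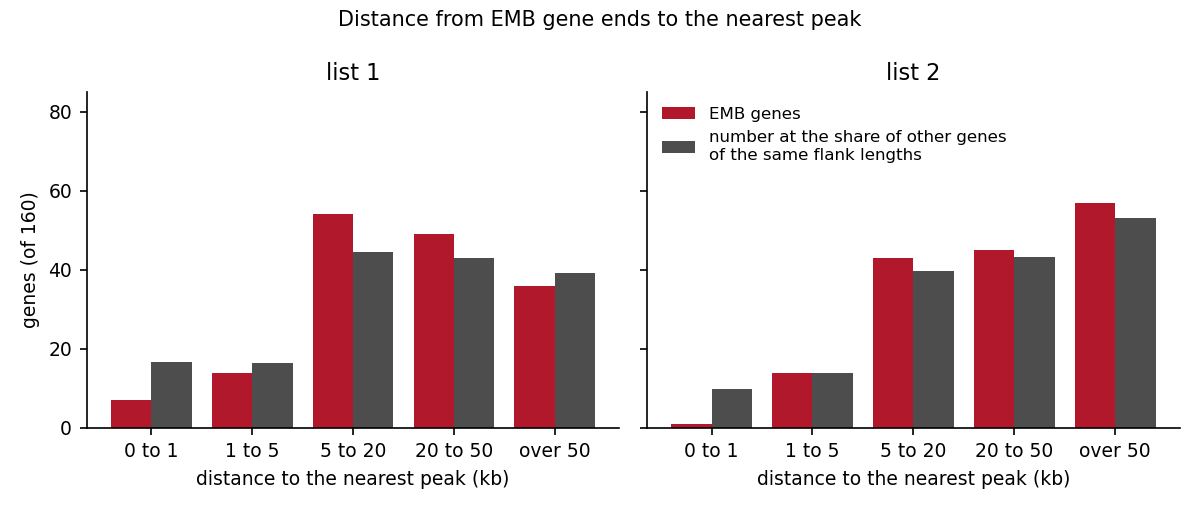
Number of EMB genes by distance from the nearer gene end to the nearest peak, in kb, for list 1 (left) and list 2 (right), in red, and the number at the share of other genes of the same flank lengths, in grey. Within 1 kb the red bars are lower (7 against 16.7 and 1 against 9.79), and from 5 to 50 kb they are higher, by more in list 1 (54 against 44.6 from 5 to 20 kb).

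Genes next to EMB genes had a share of peaks between that of EMB genes and that of genes in general. The 319 protein-coding genes adjacent to a member had a list 1 peak in 27 cases (8.46%, against 10.5% for other genes of the same flank lengths), a list 2 peak in 10 (3.13%, against 6.17%) and both in 7 (2.19%, against 4.63%). Windows of neighbours overlap those of EMB genes, so these counts share peaks. The 7 were AT1G49500, AT1G67310, AT1G78620, ATXRCC1, EXGT-A3, AT4G09970 and AT5G40470. Peaks inside the gene body gave no further EMB gene. A list 1 peak overlapped the body of 6 EMB genes (3.75%, against 8.58% of all genes) and a list 2 peak that of 0 (against 4.59%).

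Peaks were thinly spread over the roles of EMB genes. Roles of 82 members were assigned from general knowledge and the RefSeq synonyms, because the table gives no product names. Counts per role are small, and the number that the share of all genes would give in list 1 stands beside each. Of the 24 pentatricopeptide repeat protein genes 1 had a list 1 peak (EMB975), against 2.7, and of the 13 ribosomal protein genes 1 did (emb2184), against 1.46. Of the 11 genes for splicing and nuclear RNA processing 2 did (EMB3011 and EMB1691), against 1.24. Of the 6 for RNA helicases and nucleases of organelles 1 did (emb2746), against 0.675, and of the 4 for tRNA modification and maturation 1 (EMB2820), against 0.45. None of the 10 genes for replication, chromosomes and cell division had a peak in either list, nor did any of the 6 aminoacyl-tRNA synthetase genes, the 5 proteasome and nuclear pore genes or the 3 mTERF genes. The share of all genes would give 1.13, 0.675, 0.563 and 0.338 there, so these zeros are near the background. The 78 members without an assigned role had 1 list 1 peak (emb2170) and 1 list 2 peak (EMB269), against 8.78 and 5.21. The 6 tRNA synthetase genes lay 18293 to 546962 bp from list 1 peaks and 19320 to 508767 bp from list 2 peaks.

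Genes that carry an EMB number under another main symbol had counts close to those of other genes. A further 96 protein-coding genes carry an EMB number only as a synonym. Of these 10 (10.4%) had a list 1 peak, 7 (7.29%) a list 2 peak and 5 (5.21%) both, against 10.8%, 6.41% and 4.85% of other genes of the same flank lengths. The 5 were TIM9, a mitochondrial import protein gene (scores 148.49 and 94.4), SCE1, which encodes the SUMO conjugating enzyme (77.89 and 150.29), FUS6, a COP9 signalosome subunit gene (66.95 and 104.64), PEX5, the peroxisomal import receptor gene (171.88 and 76.52), and AKRP, a chloroplast ankyrin repeat protein gene (141.43 and 181.9). Main-symbol and synonym genes combined made 256 genes, which had 17 list 1 targets, 8 list 2 targets and 5 in both, against 27.1, 15.9 and 11.9 at the flank-binned shares. The difference between the main-symbol and synonym genes was not tested. The count of 0 holds for genes with EMB as their main symbol, and not for all genes that have carried an EMB number.

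Other symbol families, most of them named for defects of reproductive development, had 6 to 44 members each. The symbols MEE (maternal effect embryo arrest), EDA (embryo sac development arrest), UNE (unfertilized embryo sac), PDE (pigment defective), OVA (ovule abortion) and TTN (titan) with digits gave 114 genes. Of these 7 (6.14%) had a list 1 peak, 5 (4.39%) a list 2 peak and 3 (2.63%) both, against 13.0, 7.78 and 5.92 genes at the flank-binned shares. The 3 were MEE31, or PMI1, a phosphomannose isomerase gene (scores 73.86 and 110.22), EDA12 (54.85 and 162.2) and UNE7 (100.94 and 136.05). The 6 OVA and 6 TTN genes had 0 in either list, where the flank-binned shares give only 0.684 and 0.695 in list 1 and 0.404 and 0.425 in list 2. Of the 114 genes, 3 also carry an EMB number as a synonym and were counted among the synonym genes too.

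A list of genes drawn up for embryo pattern and identity was set beside the EMB genes. It also holds KNOLLE, KEU, HIK and DCL1, so not every member is a regulator of pattern. Of 39 listed symbols 38 matched 1 gene each, and 1 was ambiguous and was left out. Of the 38, 4 (10.5%) had a list 1 peak, 2 (5.26%) a list 2 peak and 2 (5.26%) both. The shares of other genes of their flank lengths were 14.6%, 8.41% and 6.45%. Among the 38, 4 also carry an EMB number as a synonym, so this list and the synonym genes overlap. These genes have much longer flanks, with a median sum of 5928.5 bp. The 2 with both were TPL, the TOPLESS corepressor gene (206.58 and 264.99), and PHB, an HD-ZIP III gene for leaf and embryo polarity (117.83 and 60.17). The auxin efflux gene PIN7 had a list 1 peak only (107.62). LEC1, LEC2, FUS3 and ABI3, which specify embryo identity and seed maturation, had no peak at an end window in either list, and LEC1 was the nearest to one, at 2051 bp in list 1 and 2166 bp in list 2.

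**Figure D5:**
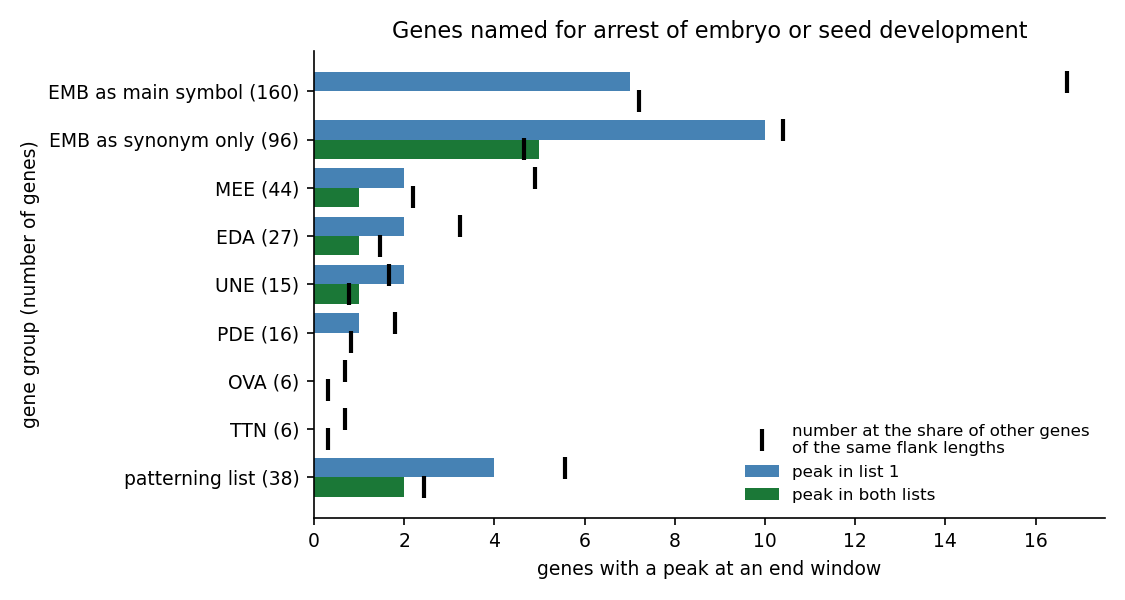
Number of genes with a peak at an end window in list 1 (blue) and in both lists (green) for the EMB genes and other groups, with the number of genes in brackets. Black ticks give the number at the share of other genes of the same flank lengths: for EMB as main symbol the bars are 7 and 0 against 16.7 and 7.2, and for EMB as synonym only 10 and 5 against 10.4 and 4.65.

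On chromosome 1, 2 of 38 EMB genes had a list 1 peak (all genes 11.8%), on chromosome 2 it was 1 of 30 (10.7%), on chromosome 3 it was 0 of 26 (9.98%), on chromosome 4 it was 1 of 23 (10.5%) and on chromosome 5 it was 3 of 43 (12.7%). Members were not all separate loci, since 4 pairs of successive EMB genes lay less than 10000 bp apart. Read depth is unknown, so whether weak binding at genes without a peak could have been detected was not tested. List 1 held more peaks than list 2, and its peaks were wider, with medians of 2824 bp and 1236 bp. With list 1 peaks trimmed to 1236 bp, 6 EMB genes still had one.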

How the data were processed

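The files are 2 peak lists of a ChIP-seq series with 4 libraries in 2 groups. The submitters' processing notes name the build TAIR10 and the tools BWA (0.7.10-r789), MACS (1.4.2) and SAMtools. Settings, depth and duplicate handling were not given there. The deposited score of each peak is the authors' own value, read as the log-transformed p of the caller since a p of 1e-05 would score 50 and a single peak scored less. Peaks were called per replicate against the control of the same number, per the labels.

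Gene ends came from a RefSeq table of TAIR10.1, whose nuclear sequences equal TAIR10, and peak starts were converted to count from 1. The table has no strand, product names or sequence, so the planned promoter motifs and start-site classes were not run, and roles came from general knowledge. Flanks ran to the nearest gene of any type. The flank-binned share was tested on simulated data. The members and lists were chosen with earlier results of these data known. EMB synonyms and adjacent genes were added after the lists had been opened. Every EMB gene with a peak was named, with the 5 nearest to a shared peak, both extremes of flank length and shared patterning genes. Other genes were chosen after their values were seen. Python 3.11.15, pandas 2.3.3 and NumPy 2.4.6 were used.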

Additional observations from a re-analysis of the deposited data

How the results depend on the processing

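No EMB gene was shared by the lists in 8 of 11 alternatives. The exceptions were windows of 2000 bp (2 genes, EMB1691 and EMB2813) and use of a single list. A single list gave 1 gene without replicate 1 and 7 without replicate 2. Most of the 8 could not have raised a count of 0, because they only remove peaks, genes or overlap. These were windows of 500 bp, scores of at least 100, trimmed list 1 peaks and at least 200 bp of overlap. Leaving out pericentromeres or the score under 50 belongs with them. List 1 counts were 4 with scores of at least 100 and otherwise 5 to 10. List 2 counts were 0 with windows of 500 bp or scores of at least 100, 3 with windows of 2000 bp, and otherwise 1. The share of other genes of the same flank lengths with both peaks, 4.5%, was 3.75% with windows of 500 bp, 6.27% with 2000 bp, 1.87% with scores of at least 100, 2.37% for the gene with the nearest end, 3.71% with list 1 peaks trimmed to 1236 bp, 4.17% with at least 200 bp of overlap and 5.07% with gene length binned too. It was 6.06% without replicate 1 and 10.4% without replicate 2. The wider or stricter windows change it by construction, and it stayed above the EMB share in each of these. Counting peaks anywhere inside genes and leaving out the score under 50 were chosen after seeing the data and changed no EMB count. Pericentromeres were left out within 2 Mb of the centromeres, which removed 5 EMB genes, none with a peak. No paired analysis was possible because each list is already a replicate against its own control and no test was made. Read depth is unknown, and what the peak calling could detect was not tested.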
